A study of Mus musculus with 46 samples.

Results

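The muscle heat shock proteins described here are the products of 10 genes: the inducible HSP70 genes *Hspa1a* and *Hspa1b*, the constitutive HSP70 gene *Hspa8*, the HSP110 gene *Hsph1*, the HSP90 gene *Hsp90aa1*, the J-domain cochaperone gene *Dnaja1*, and the small heat shock protein genes *Hspb1*, *Hspb6*, *Hspb7* and *Cryab*. They were chosen by gene symbol, matched to the Ensembl identifiers of the count tables. All 10 stood in both tables, 10 of the 17859 genes found in either table, 10 of 17514 in the ORX table and 10 of 16987 in the DHT table. A minimum of 0.5 CPM (counts per M counts of the library) in 2 libraries removed 0 genes from either table, so all 10 were tested.

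Heat shock proteins are molecular chaperones, which bind unfolded proteins and keep them from aggregating. HSP70 and HSP90 proteins work through cycles of ATP binding. In the HSP70 cycle J-domain cochaperones deliver the client and exchange factors such as HSP110 release it. Small heat shock proteins instead hold unfolded proteins without ATP. In striated muscle several small heat shock proteins are abundant and associate with Z-discs and the cytoskeleton, and the inducible genes are switched on by heat shock factor 1 during heat and other protein-damaging stress.

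The series asks how androgens act on skeletal muscle with and without α-actinin-3, the fast-fibre Z-disc protein encoded by *Actn3*, in C57BL/6J mice that were wild type (WT) or *Actn3* knockout (KO). In the ORX experiment the gastrocnemius of male mice was sampled 12 weeks after surgery at 8 to 10 weeks of age, which removed the testes (orchidectomy) in WT-ORX (n = 6) and KO-ORX (n = 5) and exposed them without removal in WT-sham (n = 6) and KO-sham (n = 6). In the DHT experiment the spinalis, a back muscle, of female mice was sampled 6 weeks after a Silastic tube was placed under the skin at 4 to 5 weeks of age, empty in WT-empty (n = 5) and KO-empty (n = 5) and packed with 10 mg of dihydrotestosterone in WT-DHT (n = 6) and KO-DHT (n = 6). All mice, controls included, had surgery under isoflurane with buprenorphine. The labels give the genotype as KO without an allele or a founder line. The experiments differ in muscle, sex, age and time after surgery, which cannot be told apart when their levels are set side by side, so no test was made between them. The KO-ORX sample numbered 6 was not analysed here.

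The stranded total RNA libraries, with depth in M (mega) counts, held 43.4 to 50.3 M in WT-sham, 39.9 to 55.4 M in WT-ORX, 29.5 to 37.5 M in KO-sham and 26.7 to 48.5 M in KO-ORX. Depth was 37.3 to 51.2 M in WT-empty, 34.8 to 53.9 M in WT-DHT, 42.5 to 47.8 M in KO-empty and 34.9 to 51.7 M in KO-DHT. The KO-sham libraries were all smaller than the WT-sham libraries. The WT-DHT libraries of mice 39 and 50 stand apart: the chi-square of the gene counts between 2 libraries of a group, per degree of freedom, was 285 to 631 for either of them against the other 4 WT-DHT libraries, 20.8 to 42.5 among those 4, 131 between mice 39 and 50, and at most 269 in the other groups. Mouse 39 also had the lowest TMM factor of the 45 libraries (0.846) and the largest share of counts in its top 10 genes (43.2%). Leaving both out was an alternative chosen after seeing the data, and its values stand beside some of the genes it moves. The member results that changed sign with it are listed with the processing. The genotype labels held in the counts: *Actn3* lay between 5977 and 10353 CPM (from here on after TMM scaling of the library sizes) in the 23 WT libraries and between 34.3 and 83.2 CPM in the 22 KO libraries. The defining markers of skeletal muscle (*Acta1*, *Ckm*, *Myh4*, *Ttn* and *Neb*) were all present in every library, summing to 150967 to 299594 CPM with *Ttn* the most abundant.

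Changes are given as log2 fold changes with their standard errors from edgeR's quasi-likelihood fit, and q is the p of that test adjusted by the Benjamini-Hochberg method over all genes of the table. A gene was called at a q of 0.01 or less for a treatment or a genotype, and at 0.05 or less for the interaction, which is the treatment effect in KO minus that in WT. In bulk muscle, fewer cells of a type and less RNA per cell cannot be told apart. Over the 10 comparisons, 3 of the 100 member results were called: *Hsph1* was lower in WT-ORX than in WT-sham and lower in KO-sham than in WT-sham, and *Cryab* was higher in KO-empty than in WT-empty.

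These counts stand beside those of the whole tables. With orchidectomy, 1 of 10 members was called in WT against 5.45% of all genes, with a median change of the members of −0.038 beside 0.013 over all genes. KO-ORX against KO-sham gave 0 of 10 members by edgeR (1 at an unadjusted p under 0.05, 0 by DESeq2 and 0 by limma-voom) where 5.57% of all genes were called, at medians of −0.012 and 0.014. That share is 975 genes, beside 484 with only the groups compared, 589 without KO-ORX 4 and 606 without KO-ORX 5. Between genotypes, 1 of 10 was called for KO-sham against WT-sham (5.3% of all genes, medians 0.010 and −0.0069). For KO-ORX against WT-ORX the count was 0 of 10 by edgeR (2 at an unadjusted p under 0.05, 1 by DESeq2 and 0 by limma-voom) beside 3.8% of all genes, at medians of 0.025 and 0.0086. The interaction of genotype and ORX had 0 of 10 by edgeR (1 at an unadjusted p under 0.05, 0 by DESeq2 and 0 by limma-voom) and 0.0228% of all genes, which is 4 genes by edgeR, where DESeq2 called 118, limma-voom 10, and edgeR 2 to 38 with a library left out. With 10 members, 1 gene is the smallest share that can be seen.

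With DHT, 0 of 10 members were called in WT by edgeR (1 at an unadjusted p under 0.05, 1 by DESeq2 and 0 by limma-voom), although 11.3% of all genes were, and the medians were 0.25 for the members and −0.0063 for all genes. KO-DHT against KO-empty also gave 0 of 10 by edgeR (5 at an unadjusted p under 0.05, 2 by DESeq2 and 0 by limma-voom) beside 4.62% of all genes, at medians of 0.20 and −0.011. That share is 784 genes, beside 1201 by DESeq2 and 498 with only the groups compared. In mice with empty implants, 1 of 10 was called between genotypes (4.25% of all genes, medians 0.032 and 0.013). That share is 722 genes, beside 289 with only the groups compared, 450 without WT-empty 7, 453 without KO-empty 64 and 481 without WT-empty 4. For KO-DHT against WT-DHT the count was 0 of 10 by edgeR (1 at an unadjusted p under 0.05, 0 by DESeq2 and 1 by limma-voom) beside 11.6% of all genes, at medians of 0.13 and 0.0064. The interaction of genotype and DHT held 0 of 10 by edgeR (2 at an unadjusted p under 0.05, 0 by DESeq2 and 0 by limma-voom) and 3.24% of all genes. The ORX comparisons share control groups with each other, as do the DHT comparisons.

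The 2 groups of a comparison did not overlap for 1 of 10 members, *Hsph1*, in WT-ORX against WT-sham (6.04% of all genes) and for 3 of 10, *Cryab*, *Hspb6* and *Hspb7*, in KO-empty against WT-empty (6.77% of all genes). The latter 3 varied together between mice of a group, as given below, and are not separate observations. In the other comparisons the groups overlapped for all 10 members. The share of all genes whose groups do not overlap was 5.34% for KO-ORX against KO-sham, 5.1% for KO-sham against WT-sham, 5.6% for KO-ORX against WT-ORX, 11.3% for WT-DHT against WT-empty, 6.08% for KO-DHT against KO-empty and 10.4% for KO-DHT against WT-DHT.

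**Figure D1:**
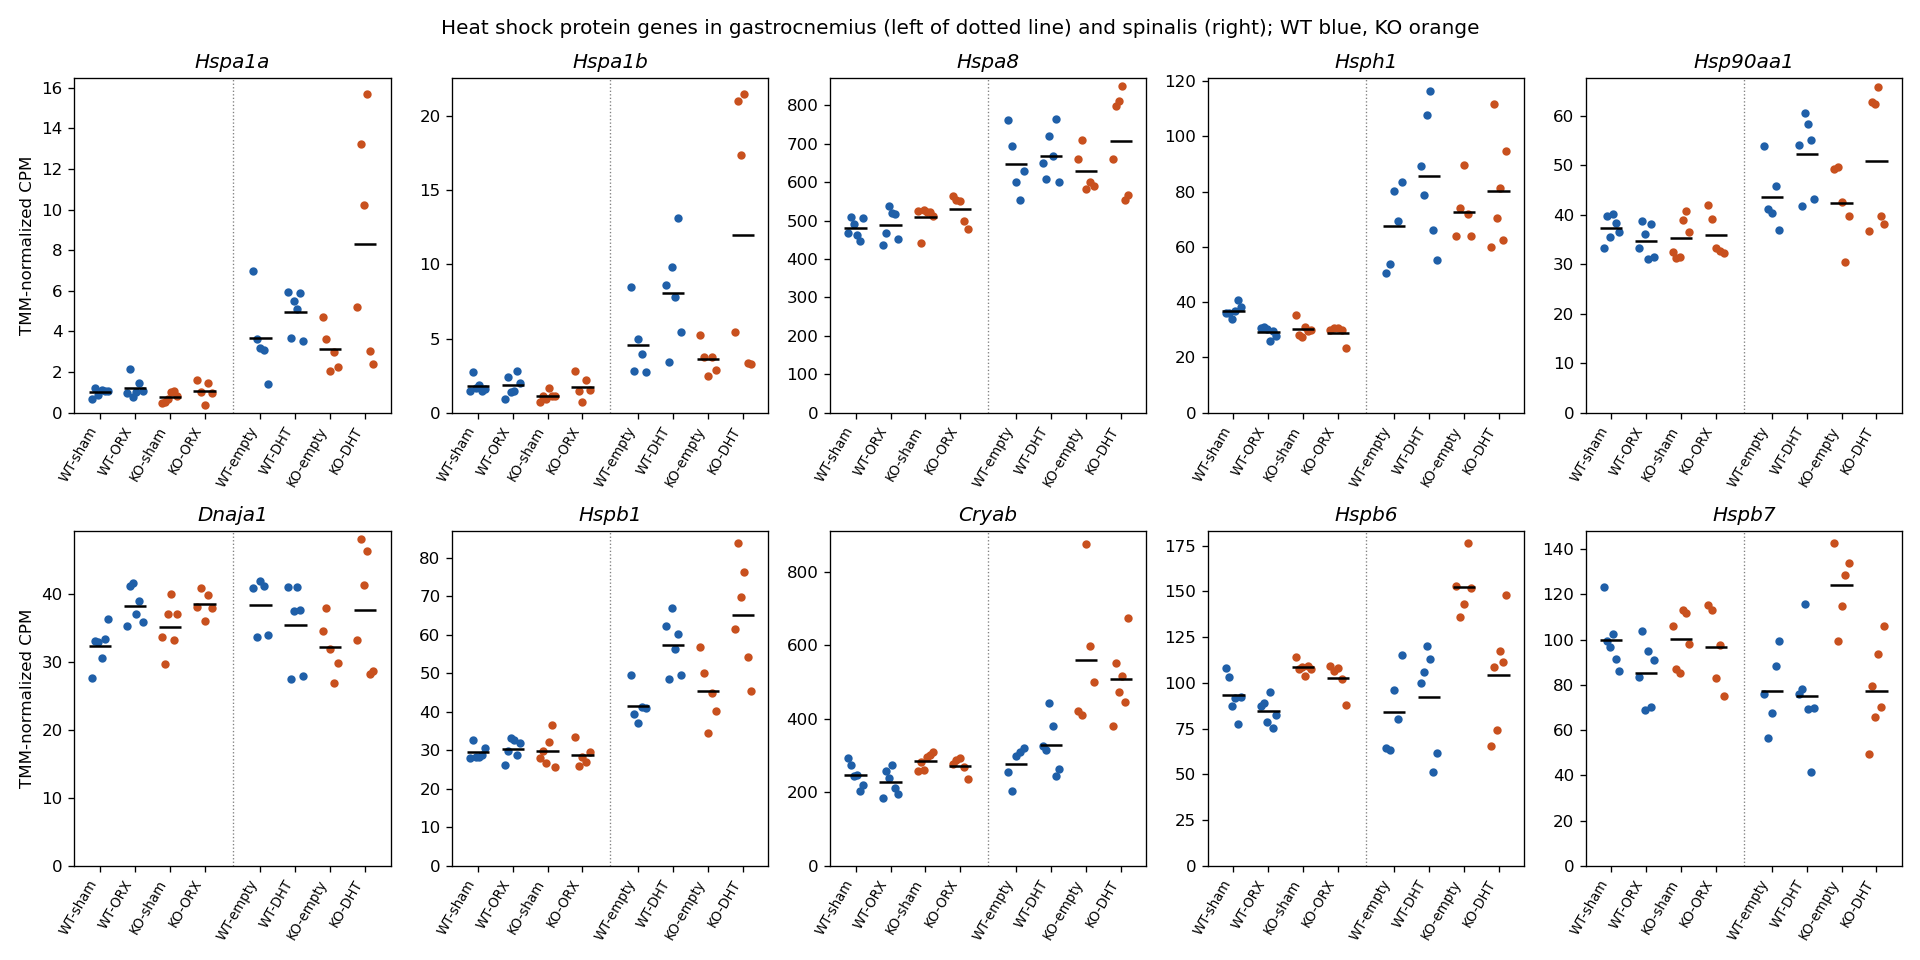
CPM (TMM-scaled, 1 panel per gene) of the 10 heat shock protein genes in each mouse of the 8 groups, with WT in blue, KO in orange, a line at each group mean and a dotted line between gastrocnemius (left) and spinalis (right). The KO-empty mice lie above all WT-empty mice for *Cryab*, *Hspb6* and *Hspb7*, and *Hspa1a* reaches 15.7 CPM in 1 KO-DHT mouse.

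*Hspa1a* and *Hspa1b* encode the stress-inducible HSP70 proteins and were the least abundant members. In the gastrocnemius, *Hspa1a* stood at 0.375 to 2.13 CPM and *Hspa1b* at 0.715 to 2.81 CPM over all 23 libraries, from 13 to 91 and 19 to 152 counts a library. No ORX comparison of either gene was called by edgeR. For *Hspa1b*, KO-sham mice had a lowest value of 0.715, a median of 1.10 and a highest of 1.68 CPM and WT-sham mice a lowest value of 1.44, a median of 1.65 and a highest of 2.72 CPM. The groups overlap, with 5 of 6 KO-sham mice below all WT-sham mice (log2 fold change −0.69 ± 0.28 (SE), edgeR q = 0.125). KO-ORX mice held 0.75, 1.47, 1.51, 2.18 and 2.81 CPM, of which 2 of 5 lie above all KO-sham mice (log2 fold change 0.64 ± 0.30 (SE), edgeR q = 0.178). The *Hspa1a* values of those comparisons were log2 fold change −0.38 ± 0.29 (SE), edgeR q = 0.476 and log2 fold change 0.49 ± 0.31 (SE), edgeR q = 0.347. With a library left out, KO-ORX against KO-sham ran from 0.41 to 0.84 for *Hspa1b* and from 0.32 to 0.72 for *Hspa1a*. The highest edgeR q was without KO-ORX 1 for both, 0.455 for *Hspa1b* and 0.614 for *Hspa1a*.

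In the spinalis the inducible genes were spread widely within groups. *Hspa1a* was at a lowest value of 2.39, a median of 7.73 and a highest of 15.7 CPM in KO-DHT, against 2.04, 2.24, 2.97, 3.63 and 4.73 CPM in KO-empty. Of the KO-DHT mice 4 of 6 lie above every KO-empty mouse and the other 2 lie within the KO-empty range, so the groups overlap (log2 fold change 1.42 ± 0.41 (SE), edgeR q = 0.0264). *Hspa1b* had a lowest value of 3.26, a median of 11.4 and a highest of 21.5 CPM in KO-DHT and 2.51, 2.89, 3.74, 3.76 and 5.24 CPM in KO-empty, and these groups overlap too (log2 fold change 1.73 ± 0.46 (SE), edgeR q = 0.0168). Again 4 of 6 KO-DHT mice lie above all KO-empty mice. The KO-DHT mice numbered 16, 25 and 40 were high for both genes, at 13.2, 10.2 and 15.7 CPM of *Hspa1a*, and mice 63 and 65 low, at 3.02 and 2.39 CPM. Neither gene was called by edgeR, but both were without mouse 65 (*Hspa1a* log2 fold change 1.61, edgeR q = 0.00891; *Hspa1b* 1.92, edgeR q = 0.00668), and *Hspa1b* was without mouse 63 (1.92, edgeR q = 0.00597). Without mouse 40 the values were 1.13 (edgeR q = 0.0802) for *Hspa1a* and 1.48 (edgeR q = 0.0469) for *Hspa1b*, the highest q of any library left out. With all libraries DESeq2 called *Hspa1b* and not *Hspa1a*.

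In WT, DHT mice had a lowest value of 3.45, a median of 8.22 and a highest of 13.1 CPM of *Hspa1b* and empty-implant mice 2.74, 2.84, 3.93, 4.96 and 8.46 CPM, with 3 of 6 WT-DHT mice above all WT-empty mice (log2 fold change 0.80 ± 0.45 (SE), edgeR q = 0.246). The WT difference for *Hspa1a* was log2 fold change 0.43 ± 0.40 (SE), edgeR q = 0.527, and it ran from 0.22 (without WT-empty 49) to 0.80 (without WT-empty 4) with a library left out. Treatment effects were not shown to differ between genotypes: the interaction of *Hspa1a* was 0.98 ± 0.57 (SE) with an edgeR q of 0.444, and that of *Hspa1b* was 0.92 ± 0.63 (SE) with an edgeR q of 0.535. Without WT-empty 4 these interactions were 0.60 and 0.57. The coding sequences of the pair differ at 10 of 1926 bases (99.5% identity), so reads can be assigned to the wrong copy. With their counts summed, KO-DHT against KO-empty gave a log2 fold change of 1.59 (edgeR q = 0.018).

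*Hspa8* encodes HSC70, the constitutive cytosolic HSP70, and had the most counts of the members in every library except those of KO-empty mouse 61 and KO-DHT mouse 65, where *Cryab* had the most. Its range was 437 to 565 CPM in the gastrocnemius and 554 to 849.6 CPM in the spinalis. It was the steadiest member between mice of a group in both experiments. Its pooled SD was 0.10 on the log2 scale in the ORX experiment and 0.19 in the DHT experiment, beside medians over all genes of 0.19 and 0.23. None of its 10 results was called by edgeR, and the largest, KO-DHT against KO-empty, was log2 fold change 0.17 ± 0.11 (SE), edgeR q = 0.349. With a library left out that value ran from 0.11 to 0.23. KO-DHT mice 16, 25 and 40 were again the highest of their group, at 799, 812 and 849.6 CPM. The small *Hspa8* differences of WT-DHT against WT-empty (0.046) and KO-empty against WT-empty (−0.043) change sign when counts are scaled by library size alone.

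*Hsph1* encodes HSP110, an exchange factor for HSP70. WT-ORX mice had a lowest value of 25.9, a median of 30.1 and a highest of 31.0 CPM and WT-sham mice a lowest value of 33.9, a median of 36.6 and a highest of 40.7 CPM. All 6 WT-ORX mice lie below all 6 WT-sham mice, the only member of 10 whose groups do not overlap in this comparison, where 6.04% of all genes do not overlap. *Hsph1* fell with orchidectomy in WT (log2 fold change −0.34 ± 0.068 (SE), edgeR q = 0.0012). It was called without each of the 23 libraries in turn. In KO, KO-ORX mice had 23.4, 30.0, 30.0, 30.6 and 30.7 CPM and KO-sham mice a lowest value of 27.3, a median of 29.7 and a highest of 35.4 CPM. These groups overlap (log2 fold change −0.061 ± 0.072 (SE), edgeR q = 0.662), and the difference turns to 0.05 under library-size scaling, which moves the median of all genes in this comparison by 0.11. The effects were not shown to differ between genotypes: the interaction was 0.28 ± 0.099 (SE), with an edgeR q of 0.33.

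*Hsph1* was also lower in KO-sham than in WT-sham (log2 fold change −0.29 ± 0.068 (SE), edgeR q = 0.00524). Of the KO-sham mice 5 of 6 lie below all WT-sham mice, and the sixth, at 35.4 CPM, lies within their range. This call depends on single libraries. It is lost without KO-sham 2, 3, 5 or 6 or WT-sham 4, 5 or 6, where the log2 fold change runs from −0.29 to −0.26 and the edgeR q from 0.0108 to 0.0189. After orchidectomy the genotypes overlapped (KO-ORX against WT-ORX, log2 fold change −0.015 ± 0.071 (SE), edgeR q = 0.947), with a change of sign to 0.03 under library-size scaling. The KO-sham libraries are the shallowest of the WT-sham and KO-sham pair, as given above, and the part of depth in this difference was not tested.

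In the spinalis *Hsph1* stood at 50.7 to 116 CPM and none of its 5 DHT results was called by edgeR. WT-DHT mice had a lowest value of 55.4, a median of 84.0 and a highest of 116 CPM and WT-empty mice 50.7, 53.7, 69.3, 80.3 and 83.5 CPM. The groups overlap, with 3 of 6 WT-DHT mice above all WT-empty mice (log2 fold change 0.34 ± 0.18 (SE), edgeR q = 0.216). Without WT-DHT 39 and 50 the value was 0.53 (edgeR q = 0.0388).

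Markers of other cell types and of fibre types were measured beside the *Hsph1* calls. In WT-ORX against WT-sham, 1 of 7 fast fibre markers was called, *Myh1*, the type 2X myosin (−0.61), with a list median of 0.010. The fast list summed to 70616 at the lowest, 83354 at the median and 97829 at the highest CPM in WT-ORX and 74016 at the lowest, 79599 at the median and 97705 at the highest CPM in WT-sham, with *Myh4* the most abundant. Of 5 macrophage and leukocyte markers 1 was called, *Csf1r* (−0.31), the most abundant of the list. The list had 3 of 5 positive, a median of 0.055, and sums of 69.5 at the lowest, 77.6 at the median and 90.2 at the highest CPM in WT-ORX and 73.4 at the lowest, 82.9 at the median and 87.4 at the highest CPM in WT-sham. Of 4 fibroblast markers 1 was called, *Pdgfra* (−0.23), with all 4 negative, a median of −0.13 and 2 at an unadjusted p under 0.05. That list, led by *Dcn*, summed to 1501 at the lowest, 1702 at the median and 1949 at the highest CPM in WT-ORX. In WT-sham it summed to 1641 at the lowest, 1869 at the median and 2459 at the highest CPM. In KO-sham against WT-sham *Csf1r* was again the 1 marker called of the macrophage list (−0.29), which had all 5 negative and a median of −0.19 and summed to 56.0 at the lowest, 69.3 at the median and 81.9 at the highest CPM in KO-sham. The fibroblast list had a median of −0.26 there, with 3 of 4 markers negative, and 0 of 4 were called by edgeR, with 2 at an unadjusted p under 0.05, 2 called by DESeq2 and 0 by limma-voom. Of 14 clock genes measured 1 was called in that comparison, *Cry1* (−0.39), in a list with 6 of 14 positive, a median of −0.14 and sums of 768 to 952 CPM in KO-sham and 726 to 901 CPM in WT-sham, led by *Tef*. Of 5 muscle markers *Acta1* was called (−0.37), with 2 of 5 positive, a median of −0.060 and sums of 150967 to 299594 CPM in KO-sham and 167791 to 237890 CPM in WT-sham, led by *Ttn*. Under library-size scaling *Myh1*, *Cry1* and *Acta1* stay called in these comparisons, and *Csf1r* (in both) and *Pdgfra* do not. No marker of these lists was at 0 in any library, and their part in the *Hsph1* values was not tested.

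Further cell lists of these ORX comparisons were counted too. Slow fibre markers had medians of 0.33 in WT-ORX, with all 8 positive, and 0.21 in KO-sham against their WT-sham controls. In WT-ORX against WT-sham 0 of 8 were called by edgeR, with 4 at an unadjusted p under 0.05, 0 called by DESeq2 and 0 by limma-voom. Their sum was 730.0 to 1483 CPM over WT-sham, WT-ORX and KO-sham, led by *Myl2*. For endothelial markers in WT-ORX against WT-sham, 0 of 3 were called by edgeR, with 0 at an unadjusted p under 0.05, 0 called by DESeq2 and 0 by limma-voom. For adipocyte markers, 0 of 4 were called by edgeR, with 0 at an unadjusted p under 0.05, 0 called by DESeq2 and 0 by limma-voom. Erythroid markers had a median of −0.41 with all 5 negative, and 0 of 5 were called by edgeR, with 2 at an unadjusted p under 0.05, 0 called by DESeq2 and 0 by limma-voom.

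*Hsp90aa1* encodes the inducible cytosolic HSP90 and stood at 31.0 to 42.0 CPM in the gastrocnemius and 30.5 to 65.8 CPM in the spinalis. None of its 10 results was called by edgeR. WT-DHT mice had a lowest value of 41.8, a median of 54.6 and a highest of 60.6 CPM and WT-empty mice 36.9, 40.5, 41.1, 45.8 and 53.9 CPM. Here 4 of 6 WT-DHT mice lie above all WT-empty mice (log2 fold change 0.26 ± 0.16 (SE), edgeR q = 0.3). KO-DHT mice had a lowest value of 36.7, a median of 51.1 and a highest of 65.8 CPM, with 3 of 6, numbers 16, 25 and 40, above all KO-empty mice (log2 fold change 0.27 ± 0.16 (SE), edgeR q = 0.312). With a library left out that KO value ran from 0.17 to 0.34. KO-DHT against WT-DHT was −0.034, which turns to 0.04 under library-size scaling. A processed pseudogene, *Gm12346*, is 99.5% identical to *Hsp90aa1* and held 23.4 to 32.03% as many counts over all 45 libraries.

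*Dnaja1* encodes a J-domain protein that delivers clients to HSP70. WT-ORX mice had a lowest value of 35.3, a median of 38.0 and a highest of 41.7 CPM and WT-sham mice a lowest value of 27.7, a median of 33.0 and a highest of 36.3 CPM. The groups overlap by 1 WT-sham mouse, and 4 of 6 WT-ORX mice lie above all WT-sham mice (log2 fold change 0.25 ± 0.066 (SE), edgeR q = 0.0167). The gene missed the threshold by edgeR, was called by DESeq2, and was called without KO-sham 2 (log2 fold change 0.25, edgeR q = 0.00956) or without WT-sham 6 (0.28, edgeR q = 0.00765). The highest q with a library left out was without WT-sham 1 (0.20, edgeR q = 0.0517). In KO the difference was log2 fold change 0.13 ± 0.070 (SE), edgeR q = 0.243, and the interaction was −0.11 ± 0.097 (SE) with an edgeR q of 0.751. In the spinalis the gene stood at 26.9 to 48.2 CPM with no result called by edgeR, and KO-empty against WT-empty, log2 fold change −0.25 ± 0.15 (SE), edgeR q = 0.315, had 3 of 5 KO-empty mice below all WT-empty mice.

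*Hspb1* encodes HSP27, a small heat shock protein that binds actin filaments. In the spinalis WT-DHT mice had a lowest value of 48.6, a median of 58.2 and a highest of 67.1 CPM and WT-empty mice 37.0, 39.5, 40.9, 41.3 and 49.5 CPM. Of the WT-DHT mice 5 of 6 lie above all WT-empty mice (log2 fold change 0.46 ± 0.14 (SE), edgeR q = 0.0188). KO-DHT mice had a lowest value of 45.5, a median of 65.6 and a highest of 84.0 CPM and KO-empty mice 34.6, 40.1, 45.0, 50.2 and 56.8 CPM, with 4 of 6 KO-DHT mice above all KO-empty mice (log2 fold change 0.52 ± 0.14 (SE), edgeR q = 0.0143). The values lie on the same side in both genotypes (interaction 0.064 ± 0.19 (SE), edgeR q = 0.921), and neither passed the edgeR threshold. In WT it was called by DESeq2, with only the groups compared, and without KO-DHT mouse 65 (log2 fold change 0.46, edgeR q = 0.0093). In KO it was called by DESeq2 and without KO-empty mouse 17 (0.62, edgeR q = 0.00763) or KO-DHT mouse 65 (0.61, edgeR q = 0.00369). The highest q with a library left out was 0.0557 by edgeR in WT (without WT-empty mouse 14, 0.42) and 0.0497 in KO (without KO-empty mouse 61, 0.44). In the gastrocnemius *Hspb1* stood at 25.6 to 36.5 CPM, and its 5 results, from −0.092 to 0.046, were not called by edgeR.

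*Cryab* encodes αB-crystallin, a small heat shock protein of Z-discs that binds desmin. KO-empty mice had 411, 422, 499, 598 and 876 CPM and WT-empty mice 204, 255, 299.8, 309.7 and 322 CPM. All 5 KO-empty mice lie above all 5 WT-empty mice, and the highest is mouse 61 at 876 CPM. *Cryab* was higher in KO than in WT with empty implants (log2 fold change 1.01 ± 0.19 (SE), edgeR q = 0.00133), and was called without each of the 22 libraries in turn, with log2 fold changes of 0.79 to 1.11. KO-DHT mice had a lowest value of 382, a median of 495 and a highest of 674 CPM and WT-DHT mice a lowest value of 245, a median of 322 and a highest of 443 CPM. Of the KO-DHT mice 5 of 6 lie above all WT-DHT mice, short of the threshold (log2 fold change 0.62 ± 0.17 (SE), edgeR q = 0.0124). It was called there by limma-voom, with only the groups compared, and without WT-empty 7, WT-DHT 15, KO-empty 33, KO-empty 61 or KO-DHT 6, where leaving out a library gave edgeR q from 0.00331 to 0.00992 and log2 fold changes of 0.62 to 0.73. It was not called by DESeq2 or under library-size scaling, and the highest q with a library left out was without KO-DHT 65 (0.52, edgeR q = 0.0415). Without WT-DHT 39 and 50, the low mice of their group, the value was 0.47 (edgeR q = 0.0886). Within a genotype the DHT values were log2 fold change 0.24 ± 0.18 (SE), edgeR q = 0.411 in WT and log2 fold change −0.15 ± 0.18 (SE), edgeR q = 0.68 in KO, and the interaction was −0.39 ± 0.26 (SE) (edgeR q = 0.515). Without KO-empty mouse 61 the KO value turns to 0.072 and the interaction is −0.17. Without WT-DHT 39 and 50 the WT value is 0.39 (edgeR q = 0.176), and with a single library left out it ran from 0.14 to 0.31.

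In the gastrocnemius *Cryab* was at a lowest value of 258, a median of 289 and a highest of 310.0 CPM in KO-sham and a lowest value of 203, a median of 245 and a highest of 294 CPM in WT-sham. The groups overlap, with 3 of 6 KO-sham mice above all WT-sham mice (log2 fold change 0.21 ± 0.091 (SE), edgeR q = 0.163). KO-ORX mice had 235, 269, 277, 289 and 294 CPM and WT-ORX mice a lowest value of 185, a median of 225 and a highest of 274 CPM, with 3 of 5 KO-ORX mice above all WT-ORX mice (log2 fold change 0.27 ± 0.095 (SE), edgeR q = 0.0974). The difference with ORX was log2 fold change −0.12 ± 0.091 (SE), edgeR q = 0.477 in WT and log2 fold change −0.062 ± 0.095 (SE), edgeR q = 0.752 in KO, the latter turning to 0.04 under library-size scaling. With a library left out, the WT value ran from −0.18 to −0.065 and the KO value from −0.090 to −0.013.

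*Hspb6* encodes HSP20, a small heat shock protein of muscle. KO-empty mice had 136, 143, 152, 153 and 177 CPM and WT-empty mice 63.5, 64.6, 80.0, 95.9 and 115 CPM. All 5 KO-empty mice lie above all 5 WT-empty mice, short of the threshold (log2 fold change 0.86 ± 0.22 (SE), edgeR q = 0.0141), and the gene was called by DESeq2, with only the groups compared, and without WT-empty 49 (log2 fold change 1.01, edgeR q = 0.00794), WT-DHT 39 (0.86, edgeR q = 0.00694) or KO-DHT 6 (0.86, edgeR q = 0.00972). It was not called by limma-voom or under library-size scaling, and the highest q with a library left out was without WT-empty 4 (0.78, edgeR q = 0.0445). KO-DHT mice had a lowest value of 65.3, a median of 110.0 and a highest of 148 CPM, and 5 of 6 lie below all KO-empty mice (log2 fold change −0.55 ± 0.21 (SE), edgeR q = 0.0966). WT-DHT mice had a lowest value of 51.5, a median of 103 and a highest of 120.4 CPM, overlapping WT-empty (log2 fold change 0.13 ± 0.21 (SE), edgeR q = 0.733). With a library left out this WT value ran from 0.043 to 0.27. The interaction, −0.68 ± 0.30 (SE), was not called (edgeR q = 0.267). Mice 39 and 50 had the lowest values of WT-DHT, 51.5 and 61.5 CPM. Without both, the interaction (−0.92, edgeR q = 0.0395) and KO-empty against WT-empty (0.85, edgeR q = 0.00361) were called, WT-DHT against WT-empty was 0.38 (edgeR q = 0.181), and KO-DHT against WT-DHT turned from 0.18 to −0.072. In the gastrocnemius KO-ORX mice had 87.6, 102, 107, 108 and 109 CPM and WT-ORX mice a lowest value of 75.5, a median of 85.1 and a highest of 95.1 CPM. There 4 of 5 KO-ORX mice lie above all WT-ORX mice (log2 fold change 0.28 ± 0.072 (SE), edgeR q = 0.0141). It was called by DESeq2, under library-size scaling, with the replicate block, and without KO-ORX 5 (0.33, edgeR q = 0.00386), WT-sham 1 (0.28, edgeR q = 0.00906), WT-sham 5 (0.28, edgeR q = 0.00643) or WT-ORX 4 (0.32, edgeR q = 0.00709). It was not called by limma-voom, and the highest q with a library left out was without KO-ORX 1 (0.26, edgeR q = 0.0461). KO-sham against WT-sham was log2 fold change 0.22 ± 0.069 (SE), edgeR q = 0.0411, and WT-ORX against WT-sham log2 fold change −0.14 ± 0.068 (SE), edgeR q = 0.222. In KO-ORX against WT-ORX, edgeR called 2 of 5 muscle markers, *Acta1* (−0.50) and *Ckm* (−0.37). It also called 1 of 7 fast fibre markers, *Tnnt3* (−0.41), and 1 of 5 macrophage and leukocyte markers, *C1qa* (−0.48). Under library-size scaling *C1qa* is not called. The part of these markers in the *Hspb6* value was not tested.

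*Hspb7* encodes a small heat shock protein found mainly in heart and skeletal muscle. KO-empty mice had 99.4, 115, 129, 134 and 143 CPM and WT-empty mice 56.5, 67.5, 75.9, 88.4 and 99.2 CPM. All 5 KO-empty mice lie above all 5 WT-empty mice (log2 fold change 0.68 ± 0.20 (SE), edgeR q = 0.038), which is short of the threshold. With *Cryab* and *Hspb6*, 3 of 10 members had groups that do not overlap in this comparison, beside 6.77% of all genes. These 3 genes varied together between spinalis mice of a group, as given below, so they are not 3 separate observations. KO-DHT mice had a lowest value of 49.5, a median of 74.9 and a highest of 106 CPM, with 5 of 6 below all KO-empty mice (log2 fold change −0.68 ± 0.19 (SE), edgeR q = 0.0256). WT-DHT mice had a lowest value of 41.5, a median of 72.7 and a highest of 116 CPM (log2 fold change −0.046 ± 0.20 (SE), edgeR q = 0.913), and the interaction was −0.63 ± 0.28 (SE) (edgeR q = 0.27). The lowest WT-DHT value was that of mouse 39. Without WT-DHT 39 and 50 the WT value turns to 0.12 (edgeR q = 0.733), KO-DHT against WT-DHT turns from 0.047 to −0.12, and the interaction is −0.79 (edgeR q = 0.0856). In the gastrocnemius *Hspb7* stood at 68.7 to 123 CPM without a call by edgeR, and WT-ORX against WT-sham was log2 fold change −0.23 ± 0.11 (SE), edgeR q = 0.229.

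**Figure D2:**
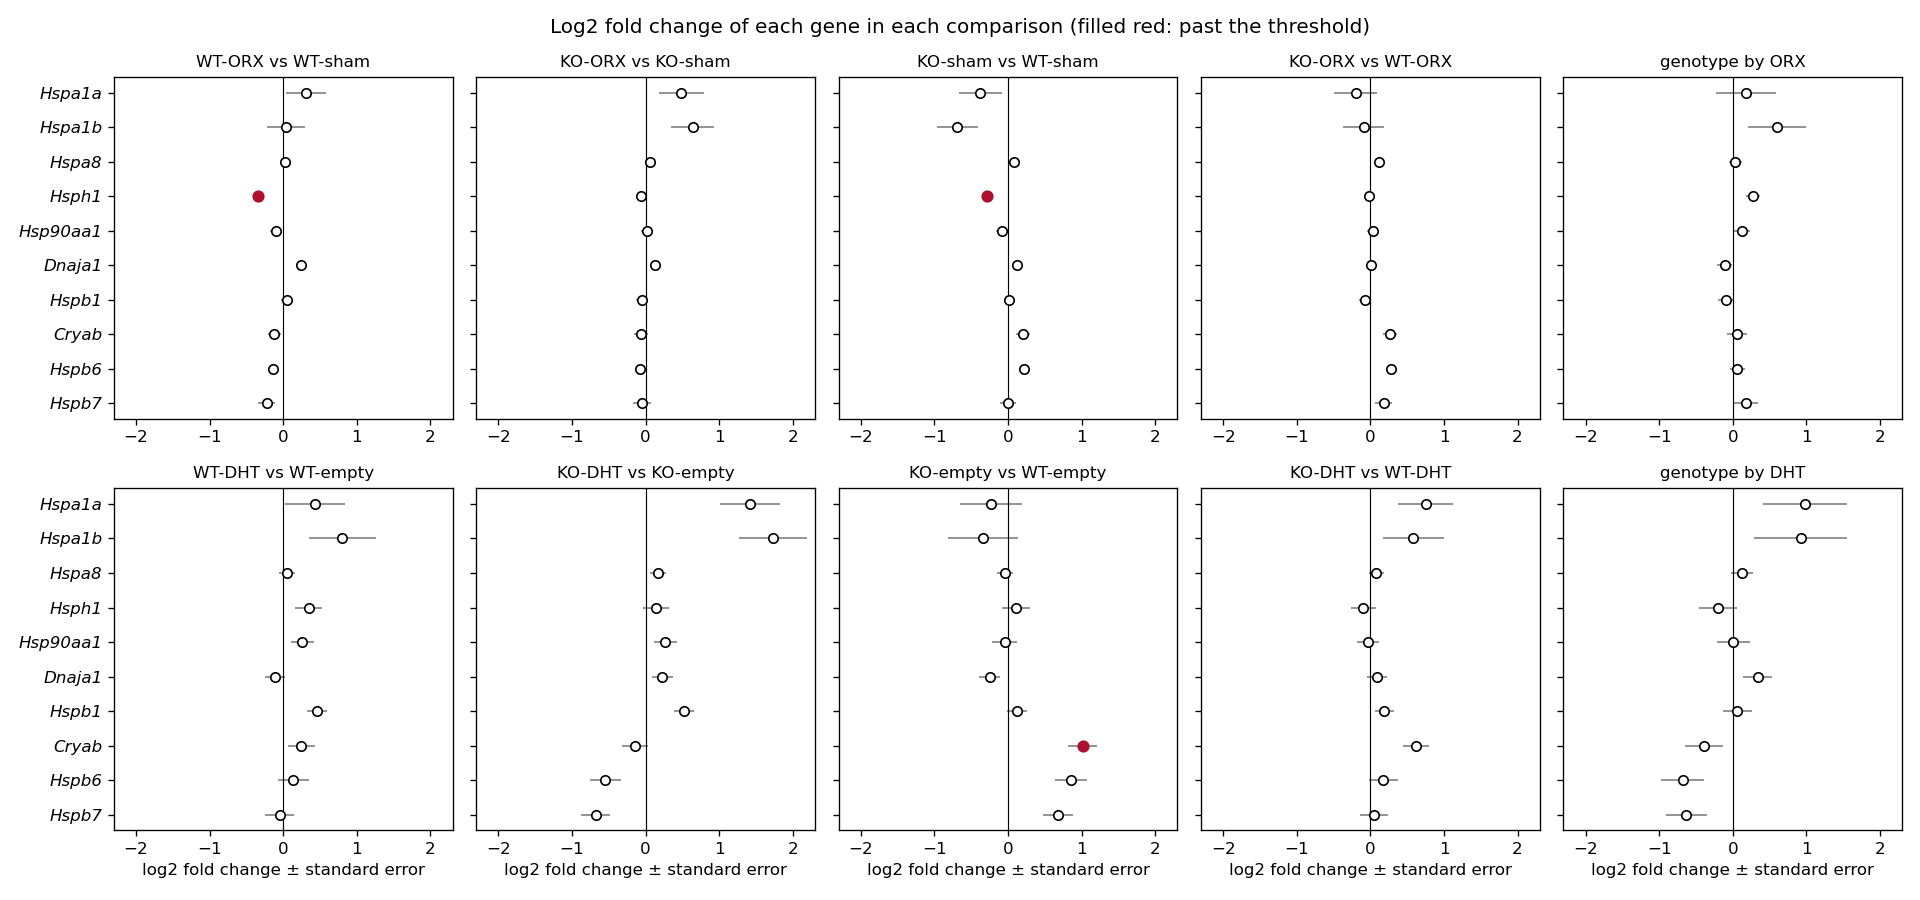
Log2 fold changes with standard errors of the 10 members in the 10 comparisons from edgeR's quasi-likelihood fit, with red marks for results past the threshold. Red marks stand at *Hsph1* in WT-ORX against WT-sham (−0.34) and KO-sham against WT-sham (−0.29), and at *Cryab* in KO-empty against WT-empty (1.01).

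Fibre-type markers were measured beside the small heat shock proteins of the spinalis. Summed CPM of the 8 slow fibre markers was 948, 1395, 1871, 2251 and 2343 in KO-empty and 444, 869, 1057, 1494 and 2173 in WT-empty, with *Myh7* the most abundant. The groups overlap, the list median was 0.55 and 0 of 8 were called by edgeR, with 0 at an unadjusted p under 0.05, 0 called by DESeq2 and 0 by limma-voom. With DHT the slow sum was 252 at the lowest, 495 at the median and 1052 at the highest in WT-DHT and 322 at the lowest, 468 at the median and 1237 at the highest in KO-DHT. List medians were −1.10 in WT, where 0 of 8 were called by edgeR, with 7 at an unadjusted p under 0.05, 0 called by DESeq2 and 0 by limma-voom, and −1.62 in KO, where 1 of 8 was called by edgeR, *Tpm3* (−1.47), with 8 at an unadjusted p under 0.05, 2 called by DESeq2 and 3 by limma-voom. The 7 fast fibre markers summed to 93683, 102616, 104231, 108321 and 115519 CPM in KO-empty and 110159, 117119, 117733, 122079 and 126128 CPM in WT-empty, with *Myh4* the most abundant. Of these 2 were called lower in KO-empty than in WT-empty, *Tnnc2* (−0.71) and *Tnnt3* (−0.37), at a list median of −0.23. With DHT the fast markers *Tnnc2* (0.69) and *Tnni2* (0.36) rose in KO, at a list median of −0.080, and *Atp2a1* (−0.37) fell in WT, at a list median of 0.015. Under library-size scaling *Tpm3* in KO-DHT against KO-empty and *Tnnc2* in KO-empty against WT-empty are not called. KO-empty mouse 61, the highest for *Cryab*, also had the highest erythroid sum of its group, 704 CPM, against 99.9 to 281 CPM in the other KO-empty mice and 66.8 to 275 CPM in WT-empty. *Hbb-bs* led that list, and 0 of 5 were called by edgeR, with 4 at an unadjusted p under 0.05, 0 called by DESeq2 and 0 by limma-voom. Macrophage and leukocyte markers, led by *Csf1r*, had a median of 0.24 with all 5 positive and sums of 51.5 to 148 CPM in KO-empty and 60.3 to 86.8 CPM in WT-empty, and 0 of 5 were called by edgeR, with 2 at an unadjusted p under 0.05, 0 called by DESeq2 and 0 by limma-voom. Skeletal muscle markers, led by *Ttn*, had a median of −0.23 and overlapping sums of 216734 to 260315 CPM in KO-empty and 252957 to 298800 CPM in WT-empty, and 0 of 5 were called by edgeR, with 3 at an unadjusted p under 0.05, 1 called by DESeq2 and 0 by limma-voom. In KO-DHT against WT-DHT 1 of 5 muscle markers was called, *Acta1* (−0.51), which stays called under library-size scaling. No fast or slow fibre marker was called there by edgeR, DESeq2 or limma-voom, with 2 of 7 and 0 of 8 at an unadjusted p under 0.05. No listed marker was at 0 in any library, and the part of these markers in the *Cryab*, *Hspb6* and *Hspb7* values was not tested.

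Further lists of the DHT experiment were measured in the same way. With DHT, *Fos*, an immediate early gene, rose in WT (1.05) and KO (0.98), 1 of 9 in the list each time, and the list, led by *Jun*, summed to 189 to 273 CPM in WT-DHT, 143 to 246 CPM in KO-DHT and 146 to 224 CPM in mice with empty implants. Of the 2 cold-inducible RNA-binding genes *Cirbp* rose in WT (0.54), with sums of 16.8 to 28.9 CPM in the spinalis. Between genotypes with empty implants 1 of 14 clock genes was called by edgeR, *Cry2* (0.62), and 0 by limma-voom. That list, led by *Tef*, summed to 603 to 912 CPM in KO-empty and 667 to 784 CPM in WT-empty. Of the fibroblast markers *Dcn* rose in WT (0.54) and KO (0.51), *Pdgfra* fell in WT (−0.44), and the list, led by *Col3a1*, summed to 1136 to 2547 CPM. *Pecam1*, the most abundant of 3 endothelial markers, rose in WT (0.33), and that list summed to 102 to 185 CPM. The adipocyte list, led by *Fabp4*, summed to 223 to 708 CPM, and in KO-DHT against KO-empty 0 of 4 were called by edgeR, with 0 at an unadjusted p under 0.05, 0 called by DESeq2 and 0 by limma-voom. The calls of *Dcn*, *Pecam1* and *Cry2* are not kept under library-size scaling. The part of these lists in the members' values was not tested.

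Levels between members are compared per kilobase of exon, as means ± SD of CPM per kb. The length covers all annotated exons of a gene together, and which transcripts were present was not measured. Near-identical copies also limit the counts of *Hspa1a*, *Hspa1b*, *Hspa8* and *Hsp90aa1*. The order between genes is therefore approximate, and the overlaps given here concern only the spread between mice. In WT-sham gastrocnemius the order was *Cryab* (167 ± 22.5), *Hspa8* (112 ± 6.00), *Hspb6* (40.6 ± 4.81), *Hspb7* (36.1 ± 4.63) and *Hspb1* (28.6 ± 1.77). *Hsp90aa1* (9.49 ± 0.675), *Hsph1* (5.09 ± 0.318), *Dnaja1* (3.75 ± 0.338), *Hspa1b* (0.639 ± 0.171) and *Hspa1a* (0.337 ± 0.0684) followed. The ranges of *Hspb6* and *Hspb7*, and of *Hspb7* and *Hspb1*, overlap, whereas the other neighbours in this order do not. In WT-empty spinalis *Cryab* (188 ± 32.8) and *Hspa8* (151 ± 19.0) again led, with overlapping ranges, before *Hspb1* (40.4 ± 4.56), *Hspb6* (36.5 ± 9.58) and *Hspb7* (28.0 ± 6.08), whose neighbours also overlap. *Hsp90aa1* (11.1 ± 1.66) and *Hsph1* (9.29 ± 2.06) overlap too. *Dnaja1* (4.45 ± 0.477), *Hspa1b* (1.64 ± 0.838) and *Hspa1a* (1.23 ± 0.686) came last, and the ranges of *Hspa1b* and *Hspa1a* overlap. In KO-empty the *Cryab* level was 379 ± 129 and did not overlap that of *Hspa8* (146 ± 12.8). When the 4 groups of an experiment are put in order of mean CPM for a member, neighbouring groups overlap for all 10 members in both experiments.

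The members differed in how far mice of a group lay apart. *Hspa1b* had a pooled SD of 0.86 (log2 CPM) in the spinalis, above that of 98.3% of all genes, and *Hspa1a* 0.77, above 96.9%. In the gastrocnemius they had 0.51 and 0.52, above 89.9% and 90.4% of all genes. *Hspb6* had 0.13 in the gastrocnemius and 0.40 in the spinalis, above 28.6% and 75.8% of all genes, and *Cryab* 0.17 and 0.33, above 45.1% and 67.5%.

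Within groups, sets of members varied together between mice, and these sets were formed here after the values were seen. Correlations are Pearson's r of log2 CPM after subtracting group means, over 22 spinalis libraries, which share the library kit and the scaling, and they carry no test. *Hspa1a*, *Hspa1b*, *Hspa8*, *Hsp90aa1*, *Dnaja1* and *Hspb1* had r of 0.71 to 0.91 over their 15 pairs. *Cryab*, *Hspb6*, *Hspb7* and *Hsph1* had r of 0.50 to 0.80 over 6 pairs. Between the sets r ran from −0.31 to 0.41 over 24 pairs. Without KO-DHT, whose mice 16, 25 and 40 were high for the first set, r of that set was 0.41 to 0.84 over 16 libraries, and the second set had 0.41 to 0.80. WT-DHT 39 and 50, which stand apart, stayed in all these r. Leaving both out raised WT-DHT against WT-empty for each gene of the second set. The values went from 0.34 to 0.53 for *Hsph1*, 0.24 to 0.39 for *Cryab*, 0.13 to 0.38 for *Hspb6* and −0.046 to 0.12 for *Hspb7*. The part of these libraries in the r of the second set was not tested. In the 23 gastrocnemius libraries the first set had 0.0091 to 0.80 (median 0.38) and the second −0.064 to 0.63 (median 0.37). Between the sets r ran there from −0.33 to 0.43 (median 0.10), which overlaps the range within each set.

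**Figure D3:**
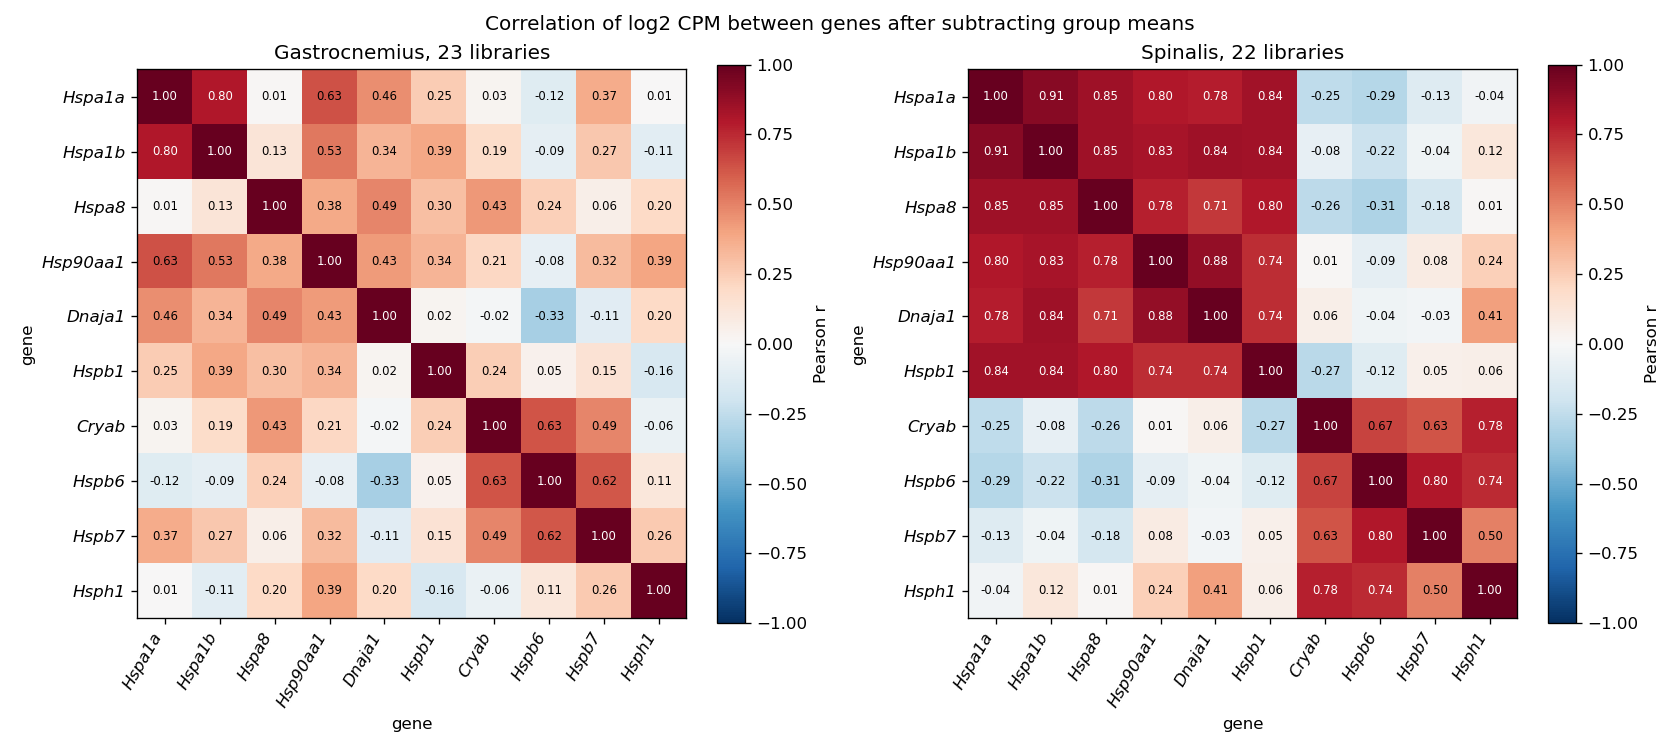
Pearson's r of log2 CPM between the 10 members after subtracting group means, for 23 gastrocnemius libraries (left) and 22 spinalis libraries (right), with the color scale giving r. In the spinalis the 15 pairs among *Hspa1a*, *Hspa1b*, *Hspa8*, *Hsp90aa1*, *Dnaja1* and *Hspb1* run from 0.71 to 0.91.

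The genes of the whole table most like each member between mice were found by the same r, the highest 3 per member. In the spinalis *Hspa8* was most like its processed pseudogenes *Gm15459* (0.96) and *Gm8355* (0.91), and *Hspa1a* was most like *Hspa1b* (0.91). *Hsp90aa1* was most like *Gm12346* (0.96), the near-identical copy given above, and *Gm15542* (0.89). By edit distance *Gm15542* matched *Hsp90aa1* at 53.0% over 1194 bases, which does not show it to be a copy. *Gm15459* is 99.7% identical to *Hspa8* and *Gm8355* 98.7%, and *Gm15459* held 16.4 to 20.7% as many counts as *Hspa8*, so reads of *Hspa8* and these copies may be shared. *Dnaja1* was most like *Dnajb1* (0.91), another J-domain cochaperone, and *Hsp90aa1* (0.88). *Hsph1* was most like *Trim25* (0.89) and *Hsp90ab1* (0.88), the constitutive HSP90. *Hspb7* was most like *Dnaja4* (0.91), *Hspb6* *Polr2e* (0.94), *Cryab* *Ppip5k1* (0.82) and *Hspb1* *6430548M08Rik* (0.86). In the gastrocnemius *Hspb6* was most like *Actn2* (0.78), the α-actinin of the Z-disc of all fibres, *Myh1* (0.77) and *Mdh2* (0.77). *Cryab* was most like *Hadhb* (0.85), a β-oxidation enzyme, *Dhrs4* (0.82) and *Fabp3* (0.82), *Hspb7* like *Lmcd1* (0.74) and *Csrp3* (0.73), and *Hsp90aa1* like *Arf2* (0.84) and *Hspa5* (0.82). *Hspa1a* and *Hspa1b* were both most like *Tuba1b* (0.83 and 0.80). These r share the same 23 or 22 libraries and were not tested.

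The genes lie on 6 chromosomes in build GRCm38 (GENCODE M21). *Hspa1a* (ENSMUSG00000091971; chr17:34969190-34972156, minus strand) and *Hspa1b* (ENSMUSG00000090877; chr17:34956436-34959238, minus strand) are neighbours. *Hspa8* (ENSMUSG00000015656; chr9:40800984-40810087, plus strand) and *Cryab* (ENSMUSG00000032060; chr9:50751325-50756636, plus strand) share a chromosome, as do *Hsph1* (ENSMUSG00000029657; chr5:149614287-149636376, minus strand) and *Hspb1* (ENSMUSG00000004951; chr5:135887919-135889563, plus strand). *Hspb7* (ENSMUSG00000006221; chr4:141420779-141425311, plus strand) and *Dnaja1* (ENSMUSG00000028410; chr4:40722150-40737149, plus strand) share another. *Hsp90aa1* (ENSMUSG00000021270; chr12:110690605-110702728, minus strand) and *Hspb6* (ENSMUSG00000036854; chr7:30552178-30555443, plus strand) stand alone. *Cryab* overlaps *Hspb2* on the opposite strand, and *Hspb2* held 2.89 to 14.4% as many counts. *Hspb6* overlaps *Lin37* and *Proser3* on the opposite strand, and *Dnaja1* overlaps *Smu1* on the opposite strand. The libraries were stranded, but the strand setting of the counting is not given in the sources used here, so reads from these overlaps may be counted to either gene.

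RefSeq promoters (build GRCm38.p6, 250 bases before the start) were listed for 7 of 10 members, 11 promoters in all. The heat shock element is built from NGAAN units, and the pairs of units GAANNTTC and TTCNNGAA, each its own reverse complement, were searched on both strands. Of 32851 promoters, 6.69% held GAANNTTC and 7.17% TTCNNGAA, and 12.8% held either. Of the 7 members, 6 held either motif, all but *Hspb7*, in 7 of 11 promoters. *Hspa1a* and *Hspa1b* have GAAGATTC at bases 104 to 97 before the start, *Hspb1* GAAGTTTC and GAACCTTC, *Hspb6* GAAGTTTC, *Dnaja1* GAAAATTC and *Hsph1* TTCTCGAA. By the GENCODE positions given above, the matches of *Hsph1* (chr5:149636362-149636369), *Dnaja1* (chr4:40722344-40722351) and *Hspb6* (chr7:30553181-30553188) lie within the genes, and those of *Hspa1a*, *Hspa1b* and *Hspb1* lie upstream of them. The runs of 3 units GAANNTTCNNGAA and TTCNNGAANNTTC, reverse complements of each other, were in 0.466% of promoters and in none of the 7 members. The androgen response element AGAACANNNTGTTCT was in 3 promoters (0.00913%) and in none of the members. A match is a description of the letters, not a binding site. The promoters of *Hspa1a* and *Hspb1*, members of the set that moved together in the spinalis, are shown 5′ to 3′ over the 150 bases before the start, with the motif matches in capitals (*Hspa1a* chr17:34972157-34972306, minus strand; *Hspb1* chr5:135887769-135887918, plus strand; GRCm38.p6). The promoters of *Hspa1a* and *Hspa1b* differ at 3 of 250 bases.
Hspa1a: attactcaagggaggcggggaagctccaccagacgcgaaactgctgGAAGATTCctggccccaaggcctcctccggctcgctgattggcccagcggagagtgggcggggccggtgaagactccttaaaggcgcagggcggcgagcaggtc
Hspb1: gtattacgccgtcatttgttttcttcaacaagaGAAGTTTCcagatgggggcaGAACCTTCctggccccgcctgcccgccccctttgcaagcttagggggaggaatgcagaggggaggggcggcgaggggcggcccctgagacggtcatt

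The members are part of a wider chaperone network, and 94 further genes from 9 lists (heat shock factors, small heat shock proteins, HSP70s with exchange factors, J-domain cochaperones, HSP90s with cochaperones, the TRiC chaperonin, mitochondrial chaperones, endoplasmic reticulum chaperones and partners of chaperone-assisted autophagy) were counted beside them. In WT-ORX against WT-sham 5 of 94 (2 higher, 3 lower) were called, 5.32% beside 5.45% of all genes. Lower were *Hspb8* (−0.28), the small heat shock protein that works with BAG3, and the mitochondrial chaperones *Dnaja3* (−0.20) and *Hspa9* (−0.18). Higher were *Sugt1* (0.27) and *Cct5* (0.21). Under library-size scaling the 2 higher genes stay called and the 3 lower genes keep their direction but are not called. In KO-ORX against KO-sham 8 of 94 (0 higher, 8 lower) were called, 8.51% beside 5.57%. They are *Dnaja3* (−0.32), *Hspa9* (−0.24) and *Grpel1* (−0.25) of the mitochondrial list, *Hspb8* (−0.29), *Sqstm1* (−0.31), *Bag2* (−0.32), *Dnajc27* (−0.30) and *Dnaja2* (−0.15). All 8 keep their direction under library-size scaling, where 1 of the 8 passes the threshold.

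Between genotypes with sham surgery 11 of 94 (8 higher, 3 lower) of the network were called, 11.7% beside 5.3% of all genes. Of the HSP90 cochaperones *Sugt1* (0.27), *Cdc37* (0.22), *Ahsa1* (0.19) and *Ahsa2* (0.27) were higher in KO, 4 of 18, of which only *Cdc37* stays called under library-size scaling. The J-domain genes *Dnaja4* (0.42) and *Dnajc21* (−0.29) moved in opposite directions. *Atf4* (−0.28) and *Dnajc3* (−0.24) of the endoplasmic reticulum list were lower. Library-size scaling keeps 6 of the 11 calls, and all 11 directions. In KO-ORX against WT-ORX 8 of 94 (4 higher, 4 lower) were called (8.51% beside 3.8%), among them *Dnaja4* (0.60), *Ahsa2* (0.41), *Hsf2* (0.31), *Dnajc21* (−0.32) and *Atf4* (−0.34), and 6 of the 8 are kept under library-size scaling, *Atf4* not among them. *Dnaja4* was higher and *Dnajc21* lower in KO than in WT in all 4 genotype comparisons, by 0.80 and −0.44 with empty implants and 0.58 and −0.84 with DHT.

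With DHT 11 of 94 (6 higher, 5 lower) genes of the network were called in WT, 11.7% beside 11.3% of all genes. The testis-enriched HSP70 gene *Hspa2* (1.34) rose most, with *Hspb8* (0.62), *Hspb2* (0.47) and *Sqstm1* (0.52), the autophagy receptor. *Xbp1* (−1.03), a factor of the unfolded protein response, fell, as did *Hspb3* (−0.29), *Cct2* (−0.36) and *Hspe1* (−0.31). In KO 7 of 94 (4 higher, 3 lower) were called, 7.45% beside 4.62%. These are *Hspa2* (0.87), *Hspb8* (0.41), *Sqstm1* (0.49) and *Atf4* (0.40), higher, and *Xbp1* (−0.60), *Hspb3* (−0.28) and *Canx* (−0.30), lower. The interaction of genotype and DHT was called for 2 of 94 (2.13% beside 3.24% of all genes), the mitochondrial chaperones *Hspe1* (0.39, edgeR q = 0.0376) and *Grpel1* (0.30, edgeR q = 0.0492). Under library-size scaling 10 of the 11 calls in WT and 5 of the 7 in KO are kept, and of the interactions *Grpel1* is kept and *Hspe1* is not.

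In KO-empty against WT-empty 6 of 94 (3 higher, 3 lower) were called, 6.38% beside 4.25% of all genes. *Fkbp5*, a steroid-responsive HSP90 cochaperone, was lower in KO (−1.35 ± 0.28 (SE), edgeR q = 0.00349). *Hspb3* (0.33) and *Hsf2* (0.34) were higher, and *Atf4* (−0.56) lower. In KO-DHT against WT-DHT 17 of 94 (12 higher, 5 lower) were called, 18.1% beside 11.6%. Of the 9 mitochondrial chaperones 5 were higher in KO-DHT, *Grpel1* (0.35), *Hspa9* (0.23), *Clpb* (0.31), *Hspd1* (0.25) and *Dnaja3* (0.23). *Hsf4*, a heat shock factor, was higher too (0.81), and *Fkbp5* again lower (−1.33). Library-size scaling keeps 4 of the 6 calls with empty implants, without *Hspb3* and *Dnajc21*, and 15 of the 17 calls with DHT.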

How the data were processed

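Total RNA was sequenced from gastrocnemius (ORX) and spinalis (DHT) of 45 mice with columns in 2 tables of raw gene counts, which the authors deposited; 1 labelled KO-ORX sample was not analysed here. According to the submitters' processing notes the tools were STAR 2.7.1b, SAMtools 1.9, Picard 2.20.2 and featureCounts of Subread 2.0.0 with build GRCm39. The 10 members were matched by symbol through GENCODE M21 (GRCm38), which gave names, exon lengths and overlaps. A gene needed 0.5 CPM in 2 libraries. Genes were fitted over the 4 groups of each experiment with edgeR 4.0.16 (TMM, quasi-likelihood F-test) in R 4.3.3, with thresholds on q of 0.01 (treatments, genotypes) and 0.05 (interactions). For log2 CPM the prior count was 2. Alternatives were DESeq2 1.42.0, limma-voom (limma 3.58.1), library-size scaling, a threshold of 0.05 (0.01 for the interaction), at least 10 counts in every library, only the groups compared, a replicate block, leaving out WT-DHT 39 and 50 (chosen after seeing the data), summed *Hspa1a* and *Hspa1b*, and leaving out each library. Named genes were the members, their copies and overlapping genes, *Actn3*, called genes of a list, the most abundant gene of a list and genes most like a member. Called genes were drawn from up to 5 with the smallest p per chaperone list and up to 4 per other list. Genes most like a member were drawn from the highest 3. Not every gene within these limits is named. Other computing used Python 3.11.15 and matplotlib 3.10.9. The code was tested on simulated data. The members and the gene lists were chosen with earlier results of these data known.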

Additional observations from a re-analysis of the deposited data

Results flagged for a closer look

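Over the 10 members and 8 groups, 80 sets of values were examined for a mouse far from the others of its group, and chance gives about 1 in 20, or 4 of 80. 2 were found. *Hspa8* in KO-sham mouse 2 was 442 CPM, where the other 5 KO-sham mice lay between 511 and 527 CPM. *Hsph1* in KO-ORX mouse 5 was 23.4 CPM, where the other 4 KO-ORX mice lay between 30.0 and 30.7 CPM.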

How the results depend on the processing

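The precision of the values is set by 5 or 6 mice a group and by 26.7 to 55.4 M counts a library. *Hspa1a* rests on 13 to 765 counts a library and *Hspa1b* on 19 to 1047, while no other member has under 723 counts in a library, so counting error is largest for these genes. Near-identical copies and overlapping genes limit what is counted to *Hspa1a*, *Hspa1b*, *Hspa8*, *Hsp90aa1*, *Cryab*, *Hspb6* and *Dnaja1*. A member short of the threshold is not shown to be equal between groups. Of the 590 values that the alternatives gave for the 100 member results, 559 had the direction and the side of the threshold of the reported value, 14 passed the threshold where the reported value had not, 0 lost it and 17, none of them called, changed sign.

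At a threshold of 0.05 the number of genes called was 1735 in WT-ORX against WT-sham, 1925 in KO-ORX against KO-sham, 1838 in KO-sham against WT-sham, 1260 in KO-ORX against WT-ORX, 3078 in WT-DHT against WT-empty, 1840 in KO-DHT against KO-empty, 1557 in KO-empty against WT-empty and 3170 in KO-DHT against WT-DHT. At a threshold of 0.05 the number of members called was 2 in WT-ORX against WT-sham, 2 in KO-sham against WT-sham, 1 in KO-ORX against WT-ORX, 1 in WT-DHT against WT-empty, 4 in KO-DHT against KO-empty, 3 in KO-empty against WT-empty and 1 in KO-DHT against WT-DHT. With DESeq2 the number of members called was 2 in WT-ORX against WT-sham, 1 in KO-ORX against WT-ORX, 1 in WT-DHT against WT-empty, 2 in KO-DHT against KO-empty and 2 in KO-empty against WT-empty. With DESeq2 the number of genes called was 118 in the interaction with ORX and 1201 in KO-DHT against KO-empty. With limma-voom the number of genes called was 10 in the interaction with ORX. With limma-voom the number of members called was 1 in KO-DHT against WT-DHT. With limma-voom these log2 fold changes turned: *Hspa1b* 0.039 to −0.024 in WT-ORX against WT-sham and *Hsp90aa1* 0.0099 to −0.0060 in the interaction with DHT. With only the groups compared the number of genes called was 484 in KO-ORX against KO-sham, 498 in KO-DHT against KO-empty and 289 in KO-empty against WT-empty. With only the groups compared the number of members called was 1 in WT-DHT against WT-empty, 2 in KO-empty against WT-empty and 1 in KO-DHT against WT-DHT. With library-size scaling the number of members called was 1 in KO-ORX against WT-ORX. With library-size scaling these log2 fold changes turned: *Hsph1* −0.061 to 0.047 in KO-ORX against KO-sham, *Hsph1* −0.015 to 0.028 in KO-ORX against WT-ORX, *Hspb1* −0.047 to 0.057 in KO-ORX against KO-sham, *Hspb1* 0.017 to −0.0040 in KO-sham against WT-sham, *Hspb6* −0.078 to 0.029 in KO-ORX against KO-sham, *Hspb7* −0.049 to 0.057 in KO-ORX against KO-sham, *Hspb7* 0.0034 to −0.014 in KO-sham against WT-sham, *Cryab* −0.062 to 0.042 in KO-ORX against KO-sham, *Hspa8* 0.046 to −0.023 in WT-DHT against WT-empty, *Hspa8* −0.043 to 0.0016 in KO-empty against WT-empty and *Hsp90aa1* −0.034 to 0.044 in KO-DHT against WT-DHT. At a threshold of 0.01 the number of genes called was 1 in the interaction with ORX and 273 in the interaction with DHT. With WT-DHT 39 and 50 both left out, chosen after seeing the data, the number of members called was 2 in KO-empty against WT-empty and 1 in the interaction with DHT. With WT-DHT 39 and 50 both left out, chosen after seeing the data, these log2 fold changes turned: *Hspb7* −0.046 to 0.12 in WT-DHT against WT-empty, *Hspb7* 0.047 to −0.12 in KO-DHT against WT-DHT, *Hspb6* 0.18 to −0.072 in KO-DHT against WT-DHT and *Hsp90aa1* 0.0099 to −0.020 in the interaction with DHT. A looser or stricter threshold moves a count by its own construction, and for the other settings the cause was not tested. Library-size scaling also moved how many of the called genes lay higher, as a percentage: WT-ORX against WT-sham 37.5% to 54.4%, KO-ORX against KO-sham 35.7% to 78.6%, KO-ORX against WT-ORX 28.2% to 46.9%, the interaction with ORX 75.0% to 100%, WT-DHT against WT-empty 58.8% to 43.6%, KO-empty against WT-empty 41.3% to 52.9%, KO-DHT against WT-DHT 44.1% to 65.3% and the interaction with DHT 41.5% to 55.1%.

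The replicate block used the sample numbers of the ORX labels. With it, the number of members called was 1 in KO-ORX against WT-ORX, where *Hspb6* had a log2 fold change of 0.28 and an edgeR q of 0.00452. Pairing was checked by correlating deviations from group means across groups over 33 pairs of libraries with the number in common, which gave −0.15 to 0.19, and 7 of 23 libraries were most like a library of their own number. How many would be so without any pairing was not worked out, so this count does not settle the question. The reported values treat the samples as unpaired, with the replicate block as an alternative. For the DHT experiment no paired analysis was possible because its columns carry mouse numbers and not the replicate numbers of the labels.

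Each library was left out in turn, giving 2250 values for members, of which 2158 had the reported direction and side of the threshold, 20 newly passed it, 7 lost it and 65 changed sign. The number of genes called ran over 589 to 1116 in KO-ORX against KO-sham, 2 to 38 in the interaction with ORX and 450 to 700 in KO-empty against WT-empty. The number of members called ran over 1 to 2 in WT-ORX against WT-sham, 0 to 1 in KO-sham against WT-sham, 0 to 1 in KO-ORX against WT-ORX, 0 to 1 in WT-DHT against WT-empty, 0 to 3 in KO-DHT against KO-empty, 1 to 2 in KO-empty against WT-empty and 0 to 1 in KO-DHT against WT-DHT. The libraries that moved a count of genes by over 1.5 times were KO-ORX 4 (589) and KO-ORX 5 (606) for KO-ORX against KO-sham, WT-empty 4 (481), WT-empty 7 (450) and KO-empty 64 (453) for KO-empty against WT-empty, and for the interaction with ORX KO-ORX 3 (38), WT-ORX 2 (24), KO-sham 5 (10), KO-sham 2 and WT-sham 2 (9 each), WT-sham 1 and WT-sham 6 (8 each), KO-sham 4 and WT-sham 4 (7 each), and KO-sham 6 and WT-ORX 4 (2 each). Log2 fold changes that changed sign without a library, none of them called, had these ranges. WT-ORX against WT-sham had *Hspa1b* −0.13 to 0.19 and *Hspa8* −0.0062 to 0.054. KO-ORX against KO-sham had *Hsph1* −0.089 to 0.0068, *Hsp90aa1* −0.039 to 0.067, *Hspb1* −0.10 to 0.018 and *Hspb7* −0.12 to 0.030. KO-sham against WT-sham had *Hspb1* −0.051 to 0.057 and *Hspb7* −0.036 to 0.072. KO-ORX against WT-ORX had *Hspa1a* −0.37 to 0.033, *Hspa1b* −0.31 to 0.11, *Hsph1* −0.047 to 0.053, *Hsp90aa1* −0.021 to 0.076 and *Dnaja1* −0.014 to 0.034. The interaction with ORX had *Hspa8* −0.0016 to 0.070. WT-DHT against WT-empty had *Hspa8* −0.0056 to 0.11 and *Hspb7* −0.21 to 0.073. KO-DHT against KO-empty had *Cryab* −0.24 to 0.072. KO-empty against WT-empty had *Hspa1a* −0.44 to 0.15, *Hspa1b* −0.51 to 0.014, *Hspa8* −0.094 to 0.028 and *Hsp90aa1* −0.10 to 0.053. KO-DHT against WT-DHT had *Hsph1* −0.21 to 0.016, *Hsp90aa1* −0.12 to 0.048 and *Hspb7* −0.073 to 0.21. The interaction with DHT had *Hsp90aa1* −0.087 to 0.088 and *Hspb1* −0.024 to 0.16. The cause was not tested.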
